A study of Homo sapiens with 12 samples.

Results

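The antioxidant enzymes described here are 10 genes, SOD1, SOD2, CAT, GPX1, TXN, TXNRD1, GCLC, GCLM, NQO1 and HMOX1, chosen by name and found among the 58288 rows of the gene count table. They were measured in HL-60/S4, a human promyelocytic leukemia cell line, in 4 groups of 3 RNA-seq libraries, 12 in all. Promyelocytes were undifferentiated HL-60/S4 cells, and granulocytes were the same cells turned into a granulocytic form by 4 days in 1 µM of ATRA, all-trans retinoic acid. Each cell type was kept for 2 h in calcium-supplemented medium with 16 ng/ml TNF-α or with the same volume of vehicle, which was water. The fresh medium given to granulocytes before this step also held 1 µM ATRA, and that of promyelocytes did not. The libraries of a group came from separate flasks of 1 line and 1 seed lot, so p-values measure the spread between flasks. The promyelocyte and granulocyte treatments were separate experiments at different cell densities, so cell type and experiment cannot be told apart when levels are compared.

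Superoxide dismutases turn superoxide into hydrogen peroxide, which catalase and glutathione peroxidases then remove. Thioredoxin and glutathione carry the reducing power for peroxide removal and protein repair, and both are kept reduced with NADPH. Many of these genes carry antioxidant response elements (ARE), short DNA sites bound by the transcription factor NRF2 (encoded by NFE2L2) with a small MAF partner. NRF2 is held low by KEAP1, which delivers it for degradation. Granulocytes make superoxide themselves through the NADPH oxidase, and SOD2 is a well known target of NF-κB, the factor that TNF-α activates.

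The upstream sequence of 4 members is shown because SOD2 rose most, the partners GCLM and GCLC parted, and TXNRD1 and GCLM were the members with a match to the ARE. All come from RefSeq on GRCh38.p14 and run 5′ to 3′ on the gene's strand, and capitals mark a match to the ARE core TGACNNNGC on either strand. The TXNRD1 stretch is chr12:104215529-104215778 on the plus strand, the 250 bases before the first of its start sites. The GCLM stretch is chr1:93909431-93909680 and the GCLC stretch is chr6:53545102-53545351, both on the minus strand and each the 250 bases before the RefSeq start. The extents used for counting begin farther upstream, at 93909456 for GCLM and 53616970 for GCLC. The GCLC stretch thus lies inside the counted gene, and the GCLM stretch ends inside it. The GCLM match, at 93909456-93909464, reaches the first base of the counted gene. SOD2 has 4 start sites in RefSeq, and the stretch shown belongs to the one farthest downstream, so it lies inside the extent of the longer SOD2 transcripts. It is chr6:159693329-159693491 on the minus strand, 163 bases that hold no annotated exon of the gene, ending 88 bases before that start.
TXNRD1: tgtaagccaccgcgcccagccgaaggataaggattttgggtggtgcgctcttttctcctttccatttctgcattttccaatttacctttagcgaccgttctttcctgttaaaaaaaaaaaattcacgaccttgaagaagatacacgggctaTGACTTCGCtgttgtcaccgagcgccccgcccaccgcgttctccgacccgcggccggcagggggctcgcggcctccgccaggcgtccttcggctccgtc
GCLM: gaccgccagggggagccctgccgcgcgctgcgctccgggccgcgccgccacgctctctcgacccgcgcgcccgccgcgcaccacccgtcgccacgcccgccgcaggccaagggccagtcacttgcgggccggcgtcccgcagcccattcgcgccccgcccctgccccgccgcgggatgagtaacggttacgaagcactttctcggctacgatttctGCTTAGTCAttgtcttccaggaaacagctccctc
GCLC: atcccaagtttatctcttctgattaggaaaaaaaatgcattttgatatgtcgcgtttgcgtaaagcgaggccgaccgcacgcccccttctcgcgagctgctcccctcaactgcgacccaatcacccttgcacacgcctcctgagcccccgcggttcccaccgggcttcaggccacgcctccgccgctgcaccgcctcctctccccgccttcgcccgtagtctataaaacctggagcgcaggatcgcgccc
SOD2: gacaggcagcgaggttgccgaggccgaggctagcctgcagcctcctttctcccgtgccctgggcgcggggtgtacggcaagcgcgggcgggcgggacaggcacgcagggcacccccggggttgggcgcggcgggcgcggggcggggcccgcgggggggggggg
Counted from the RefSeq starts, the ARE core match of TXNRD1 began 99 bases upstream, and that of GCLM began 34 bases upstream. A second TXNRD1 start site had the match GCTTTGTCA at chr12:104286930-104286938, 102 bases upstream. RefSeq entries were matched for 8 of the 10 members, 12 start sites in all, and 3 start sites of 2 members held the ARE core. Of all 35116 promoter windows of 250 bases, 10.9% held it. The longer κB motif GGGRNWYYCC, searched on both strands, was in 0 of the 12 windows and in 5.21% of all windows. Windows of this size cannot show κB or ARE sites that lie elsewhere in or around a gene, SOD2 included. The ARE core can overlap the site of AP-1, and a match is a string of letters, not a measured binding site.

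The libraries held 22829189 to 31895061 counts, and 3 counts in a library were worth 0.0941 to 0.131 CPM, the count scaled to library size. The 10 NF-κB target genes listed as a check of the treatment, NFKBIA and BIRC3 among them, rose in both cell types. Of all genes tested, 8.15% rose in promyelocytes and 24.4% in granulocytes. These 10 were chosen with earlier results of these data known. Summed granulocyte markers (10 genes, ITGAM and CYBB among them) were 187 to 197 CPM with vehicle and 290 to 308 with TNF-α in promyelocytes, and 5016 to 5275 and 5594 to 5957 in granulocytes. These sums join genes that moved in opposite directions. With TNF-α, 2 of the 10 rose and 1 fell in promyelocytes, where 8.15% and 6.65% of all genes tested did. In granulocytes 3 rose and 4 fell, where 24.4% and 24.8% of all genes did. In granulocytes ITGAM fell from 298 to 252 CPM, CYBB had 2106 and 2126, and NCF1 rose from 1217 to 1949. Summed promyelocyte markers (8 genes) were 9540 to 10610 CPM with vehicle and 7161 to 8149 with TNF-α in promyelocytes, and 2320 to 2545 and 2255 to 2471 in granulocytes. MPO made up most of these sums, with 6422 and 5373 CPM in promyelocytes and 2019 and 1985 in granulocytes. In promyelocytes 1 of the 8 rose and 5 fell, and MYC went from 1879 to 797 CPM. Of 7 tested in granulocytes, 1 rose, CD34 (0.0477 to 2.28 CPM), and 1 fell, MYB (117 to 37.5). The shares of all genes are those given above. Another promyelocyte marker, ELANE, averaged 1.79 CPM in vehicle-treated promyelocytes. Summed macrophage markers (7 genes) were 3.90 to 4.76 and 2.93 to 3.95 CPM in promyelocytes, and 49.2 to 51.3 with vehicle and 30.4 to 34.0 with TNF-α in granulocytes, nearly all from CSF1R, while MARCO and MSR1 were at 0 in every library. Erythroid and lymphoid markers (6 genes) summed to 1.80 to 5.73 CPM over the 12 libraries, with ALAS2 and MS4A1 at 0. The part of these marker shifts in the results was not tested.

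Levels of the 10 transcripts were first compared with each other within a group, per length, in TPM, the count per exon length scaled to the same total in every library. TXN, the small protein disulfide reductase thioredoxin, was the most abundant in all 4 groups, with 641 ± 1.82 TPM (SD, n = 3) in vehicle-treated promyelocytes and 337 ± 10.0 in vehicle-treated granulocytes. HMOX1, which encodes the inducible heme oxygenase, was the least abundant in all 4. In vehicle-treated promyelocytes the order below TXN was SOD1 (324 TPM), GPX1 (224), CAT (200), TXNRD1 (126), SOD2 (28.9), GCLM (23.4), GCLC (17.2) and NQO1 (9.25), and no neighbours overlapped. Promyelocytes given TNF-α had the same order. Vehicle-treated granulocytes had CAT second (230 TPM), then GPX1 (212), TXNRD1 (130), SOD1 (116), GCLC (20.3), NQO1 (12.9), SOD2 (11.6) and GCLM (10.6), and only NQO1 and SOD2 overlapped among neighbours. With TNF-α, TXNRD1 stood second in granulocytes (216 TPM), followed by GPX1 (181), CAT (139), SOD1 (124), SOD2 (106), GCLM (31.9), NQO1 (29.7) and GCLC (17), with an overlap only between GCLM and NQO1. Where the longest transcript set the length, 4, 4, 0 and 3 members took another place in these 4 groups.

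**Figure D1:**
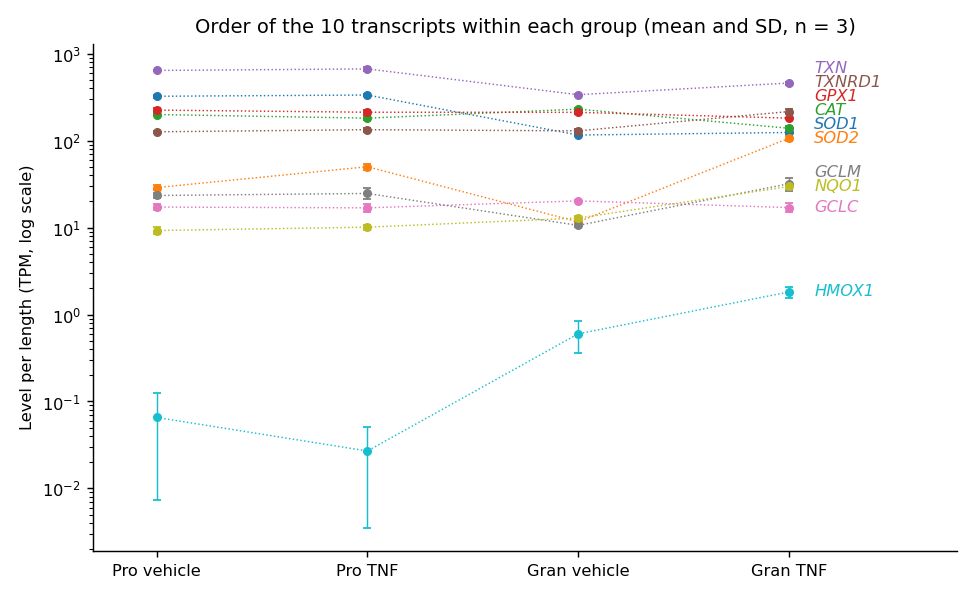
Mean level per length of the 10 transcripts (y axis, TPM, log scale) in the 4 groups (x axis), with SD over 3 libraries; dotted lines only join 1 gene. TXN is on top and HMOX1 at the bottom in each group, and SOD2 goes from 11.6 to 106 TPM between the granulocyte groups; HMOX1 in promyelocytes rests on 0 to 3 counts per library.

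Between the vehicle groups, 6 members were lower in granulocytes without overlap, on the CPM scale, and HMOX1 was higher. Of all 18124 genes tested over the 12 libraries, 74.4% did not overlap between these groups (37.3% higher and 37.1% lower in granulocytes). SOD1 was 3.18-fold lower, SOD2 2.82-fold, GCLM 2.51-fold, TXN 2.17-fold, GPX1 1.21-fold and TXNRD1 1.11-fold. CAT, NQO1 and GCLC overlapped between the cell types, and HMOX1 was at least 3.97-fold higher in granulocytes against a floor of 3 counts per library. These are descriptions of separate experiments. In such bulk RNA a change in the share of cells of a type and a change in RNA per cell cannot be told apart.

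The first question was which antioxidant transcripts changed within 2 h of TNF-α in each cell type. In promyelocytes 1 of the 9 members that passed the low-count filter changed, SOD2, against 14.8% of all 16250 genes tested (8.15% upward and 6.65% downward). In granulocytes all 10 members passed the filter and 8 changed, 7 of them upward, against 49.2% of 16944 genes (24.4% upward and 24.8% downward). The median log2 fold change of the members tested was 0.03 in promyelocytes and 0.83 in granulocytes, where the medians of all genes tested were -0.01 and -0.00. On the CPM scale, vehicle and TNF-α libraries did not overlap for 2 members in promyelocytes, beside 30.9% of all genes tested (13.7% with TNF-α higher and 17.1% with it lower). They did not overlap for 8 members in granulocytes, beside 55.1% (28.4% higher and 26.7% lower). The fit was edgeR's quasi-likelihood test with Benjamini-Hochberg adjustment over all genes tested, which also gave every adjusted p below.

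**Figure D2:**
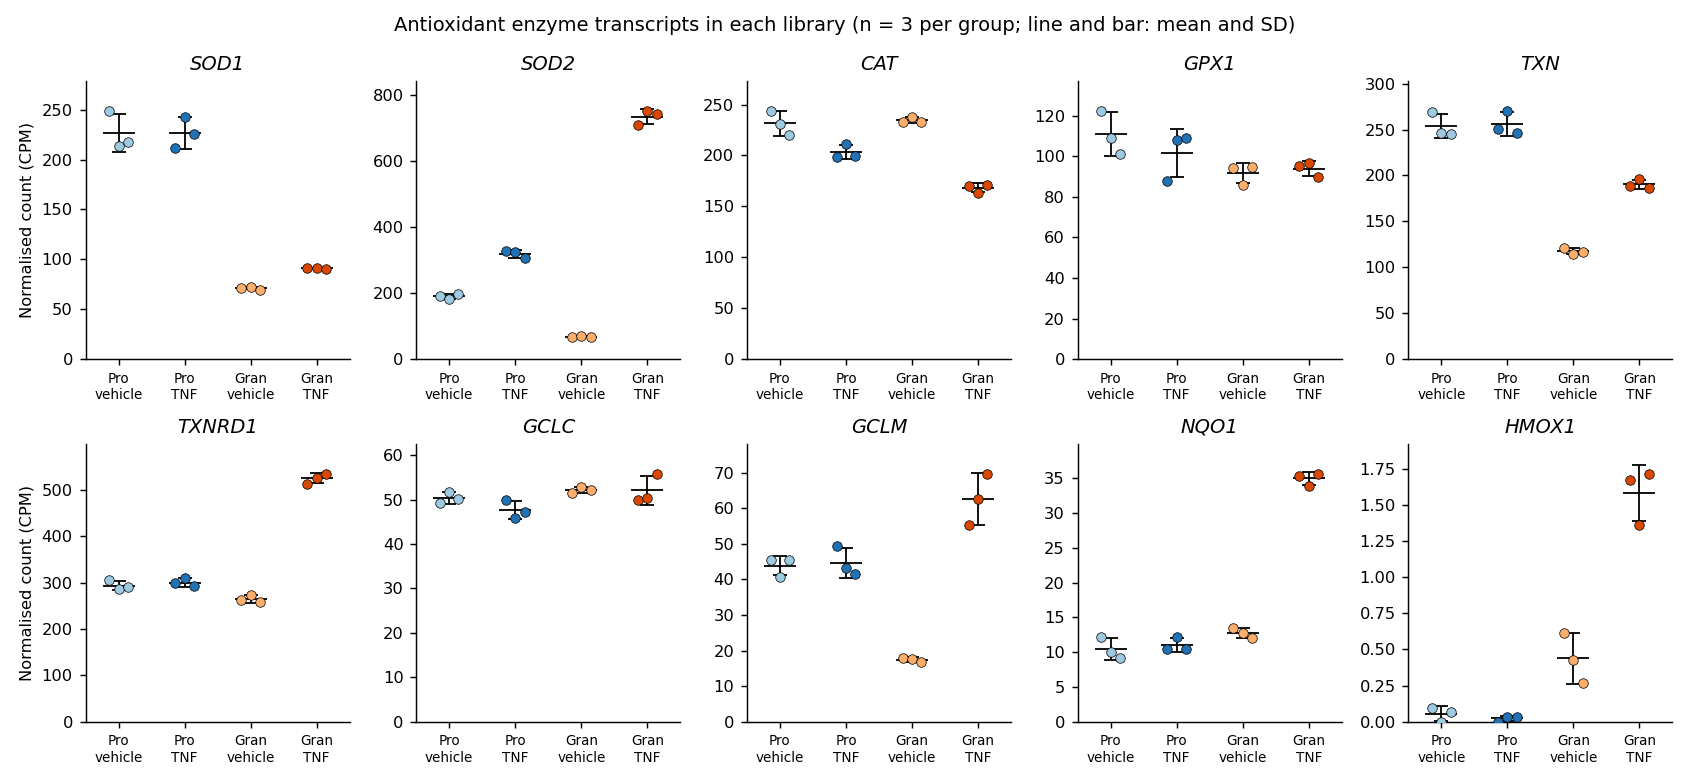
Normalised count of each member (y axis, CPM from 0, a separate scale per panel) in the 12 libraries (points), with mean and SD per group of 3. Granulocytes given TNF-α lie above granulocytes given vehicle for 7 members, below them for CAT, and among them for GPX1 and GCLC.

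SOD2, the manganese superoxide dismutase of mitochondria (chr6:159669057-159762529 on hg38), was the member that rose in both cell types and rose most in granulocytes. It had 192, 182 and 195 CPM in the promyelocyte vehicle libraries and 327, 323 and 304 with TNF-α, a 1.71-fold increase (log2 fold change 0.77 ± 0.0578 SE, adjusted p = 4.43e-09). In granulocytes it had 67.3, 68.3 and 66.1 CPM with vehicle and 707, 751 and 741 with TNF-α, a 10.8-fold increase (3.43 ± 0.0543, adjusted p = 3.75e-35). No library overlapped in either cell type, and the granulocyte groups crossed the promyelocyte ones, from the lowest of the 4 groups to the highest. The table lists this gene as ENSG00000112096, a row matched to SOD2 by position, and its exons share 437 bases with WTAP and 1850 bases with ACAT2 on the opposite strand, which the strand-aware counting keeps apart.

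SOD1, the copper and zinc superoxide dismutase of the cytosol (chr21:31659622-31668931), moved little beside SOD2. Promyelocyte libraries had 249, 214 and 217 CPM with vehicle and 211, 243 and 226 with TNF-α, which overlap (log2 fold change 0.02, 95% interval -0.10 to 0.15, adjusted p = 0.848). Granulocyte libraries had 71.7, 72.3 and 69.6 CPM with vehicle and 91.2, 91.2 and 90.2 with TNF-α, a 1.26-fold increase without overlap (0.34 ± 0.0507, adjusted p = 6.51e-07). The size of this rise depended on the scale, for in TPM these groups had 116 ± 4.36 and 124 ± 5.46. The ratio of SOD2 to SOD1 per length was 0.0819 to 0.0956 and 0.141 to 0.165 in promyelocytes with vehicle and TNF-α, and 0.0998 to 0.101 and 0.824 to 0.875 in granulocytes. With the longest transcript as the length the granulocyte ratio was 0.116 to 0.117 with vehicle and 0.955 to 1.01 with TNF-α. Per length, SOD2 thus came near the level of SOD1 in granulocytes given TNF-α. This closeness depends on scaling by length, for in CPM SOD2 had 733 ± 23.1 and SOD1 90.9 ± 0.574 in that group.

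Of the peroxide-removing members, CAT (catalase, a peroxisomal heme enzyme, chr11:34438925-34472062) was the one member that fell. In granulocytes it had 233, 238 and 232 CPM with vehicle and 170, 163 and 171 with TNF-α, so that all TNF-α libraries lay below all vehicle libraries (-0.49 ± 0.0476, adjusted p = 3.94e-11). In promyelocytes it had 244, 231 and 220 CPM with vehicle and 199, 211 and 200 with TNF-α, also without overlap, but it did not pass the test (-0.16, 95% interval -0.27 to -0.05, adjusted p = 0.0618). DESeq2 (adjusted p = 0.0335), the fit that takes out trends with GC content and length (0.0055) and the fit of all 12 libraries (0.0115) did call it, each with a negative value. GPX1, the cytosolic glutathione peroxidase, a selenoprotein (chr3:49357176-49358600), had 101 to 122 CPM and 88.0 to 109 in promyelocytes, and 86.0 to 95 and 89.6 to 96.8 in granulocytes. On this scale its groups overlapped in both cell types, with log2 fold changes of -0.10 (95% interval -0.25 to 0.05, adjusted p = 0.447) and 0.02 (-0.08 to 0.12, adjusted p = 0.784). In TPM the granulocyte groups did not overlap, with 202 to 217 for vehicle and 178 to 183 for TNF-α. GPX1 has the highest GC content of the 10 members, 63.8%, and when trends with GC content and length were taken out its granulocyte value was -0.17 (adjusted p = 0.000916).

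The thioredoxin pair rose together in granulocytes. TXNRD1, the cytosolic thioredoxin reductase that reduces TXN with NADPH (chr12:104215779-104350305), had 262, 274 and 257 CPM with vehicle and 513, 526 and 535 with TNF-α, a 1.97-fold increase (0.98 ± 0.0491, adjusted p = 3.85e-19). TXN (chr9:110243811-110256640) had 121, 115 and 116 CPM with vehicle and 189, 196 and 186 with TNF-α, a 1.61-fold increase (0.69 ± 0.0482, adjusted p = 7.73e-15). Both sets of granulocyte libraries were well apart. In promyelocytes TXNRD1 had 286 to 305 CPM with vehicle and 292 to 309 with TNF-α, and TXN had 246 to 269 and 246 to 270. Their promyelocyte log2 fold changes were 0.06 (95% interval -0.05 to 0.16, adjusted p = 0.565) and 0.03 (-0.08 to 0.15, adjusted p = 0.753). Their ratio per length, TXNRD1 to TXN, was 0.369 to 0.407 in granulocytes with vehicle and 0.458 to 0.489 with TNF-α, and 0.193 to 0.203 over both promyelocyte groups.

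Glutathione is made by glutamate-cysteine ligase, a dimer of the catalytic subunit GCLC and the modifier subunit GCLM, which raises the activity of the enzyme. The transcripts of the 2 subunits parted in granulocytes. GCLM (chr1:93885205-93909456) had 18, 17.6 and 16.8 CPM with vehicle and 55.3, 62.6 and 69.8 with TNF-α, a 3.55-fold increase (1.83 ± 0.0723, adjusted p = 2.2e-22). GCLC (chr6:53497341-53616970) had 51.5, 52.9 and 52.2 CPM with vehicle and 49.9, 50.4 and 55.9 with TNF-α, which overlap (-0.02, 95% interval -0.13 to 0.09, adjusted p = 0.803). In TPM these GCLC groups did not overlap, with 19.87 to 20.93 for vehicle and 15.69 to 19.25 for TNF-α. The GCLM to GCLC ratio per length was 0.502 to 0.547 with vehicle and 1.73 to 1.95 with TNF-α, so on the deposited exon lengths the modifier transcript went from below the catalytic one to above it. With the longest transcript as the length the ratio was 0.249 to 0.272 with vehicle and 0.859 to 0.968 with TNF-α, and there the modifier stayed below the catalytic subunit. In promyelocytes GCLM had 40.7 to 45.5 and 41.5 to 49.4 CPM (0.05, 95% interval -0.10 to 0.19, adjusted p = 0.735) and GCLC 49.2 to 51.8 and 45.9 to 49.9 (-0.05, -0.18 to 0.07, adjusted p = 0.633), and their ratio was 1.23 to 1.44 and 1.37 to 1.55 on the exon lengths, and 0.609 to 0.717 and 0.680 to 0.767 on the longest transcripts. Both subunit groups overlapped there. Of the 2 printed stretches, that of GCLM holds the ARE core, and whether the site has a part in this difference was not tested. NQO1, which also rose in granulocytes, had 0 matches in its window of 250 bases. Sites outside the windows were not searched, so neither NQO1 nor GCLC can be said to lack an ARE.

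**Figure D3:**
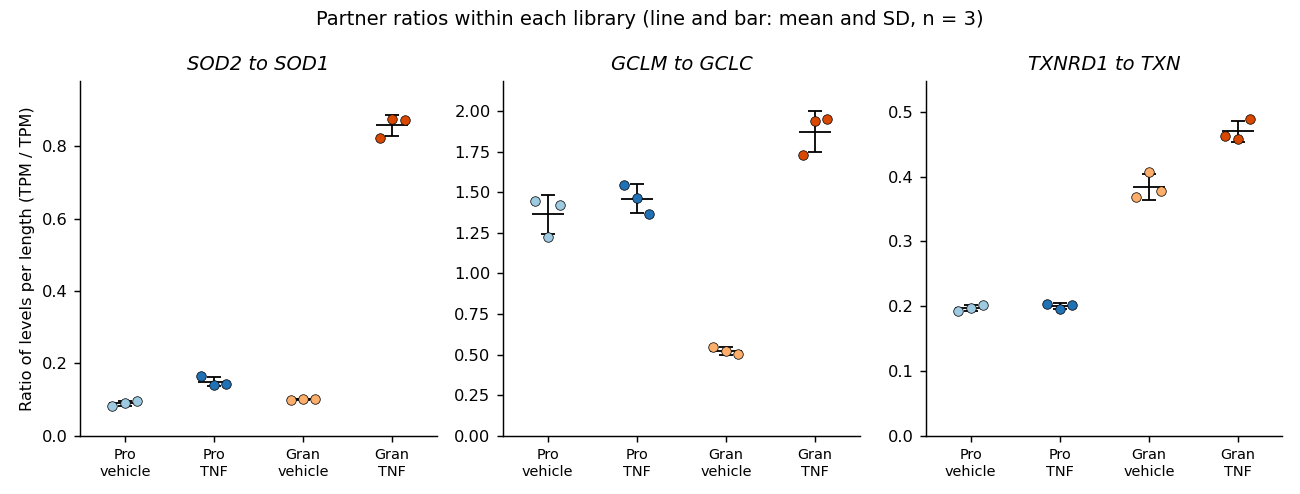
Ratio of partner transcripts per length (y axis, TPM over TPM, from 0) in each of the 12 libraries (points), with mean and SD per group of 3, for SOD2 to SOD1, GCLM to GCLC and TXNRD1 to TXN. Between granulocytes with vehicle and with TNF-α, the first goes from 0.100 to 0.858 and the second from 0.523 to 1.87 on the deposited exon lengths plotted, or from 0.260 to 0.930 on the longest transcripts.

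NQO1, a quinone reductase that is a standard NRF2 target (chr16:69706996-69726951), rose in granulocytes from 13.4, 12.8 and 12 CPM with vehicle to 35.3, 34.0 and 35.7 with TNF-α. This was a 2.72-fold increase without overlap (1.45 ± 0.0731, adjusted p = 4.39e-19). Promyelocytes had 9.18 to 12.2 CPM with vehicle and 10.4 to 12.3 with TNF-α (0.10, 95% interval -0.12 to 0.32, adjusted p = 0.627), which overlap. HMOX1 (chr22:35380361-35394214), which breaks down heme, was barely detected in promyelocytes, with 3, 0 and 2 counts with vehicle and 0, 1 and 1 with TNF-α, and it was not tested there. In granulocytes it had 16, 13 and 8 counts with vehicle and 37, 38 and 38 with TNF-α, or 0.438 ± 0.174 and 1.58 ± 0.194 CPM. The rise was 3.58-fold (1.84 ± 0.341, adjusted p = 2.25e-05), and HMOX1 had both the largest SE and the lowest counts of the members.

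**Figure D4:**
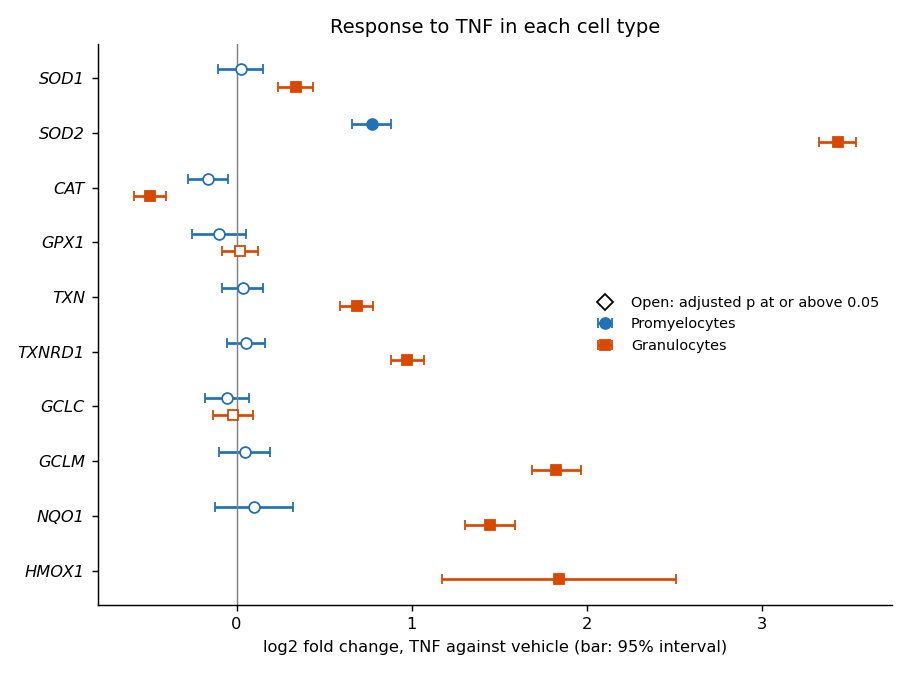
log2 fold change with TNF-α against vehicle for each member (x axis) with its 95% interval, in promyelocytes (blue circles) and granulocytes (orange squares); open symbols did not pass the test. SOD2 is the 1 filled promyelocyte point, the granulocyte points run from -0.49 for CAT to 3.43 for SOD2, and HMOX1 has no promyelocyte point.

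Whether the responses differed between cell types was tested directly, as the granulocyte minus the promyelocyte log2 fold change in a fit of all 12 libraries. The responses of 7 of the 10 members differed, against 24.0% of all 18124 genes tested (14.1% higher and 9.88% lower in granulocytes). The response was higher in granulocytes for SOD2 (2.70 ± 0.0740, adjusted p = 1.84e-19), GCLM (1.82 ± 0.113, 2.72e-12), NQO1 (1.39 ± 0.135, 1.26e-08), TXNRD1 (0.96 ± 0.0710, 7.97e-11), TXN (0.69 ± 0.0761, 1.04e-07) and SOD1 (0.35 ± 0.0856, 0.00305). CAT had the more negative response in granulocytes (-0.29 ± 0.0728, adjusted p = 0.0038). GPX1 (0.16, 95% interval -0.04 to 0.36, adjusted p = 0.297) and GCLC (0.07, -0.09 to 0.24, adjusted p = 0.586) did not pass. HMOX1 did not pass either (adjusted p = 0.0722), with 0 to 3 counts in each promyelocyte library, but it did (adjusted p = 0.0311) without promyelocyte vehicle replicate 2. Of all genes called in this comparison, 58.9% were higher in granulocytes, and 48.4% with DESeq2 size factors, 44.2% without a low-count filter and 45.8% with DESeq2, while 7 members were called under each of these.

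Among the regulators of the ARE, NFE2L2 itself rose in both cell types. It had 71.2 ± 2.29 CPM with vehicle and 141 ± 3.08 with TNF-α in promyelocytes (log2 fold change 1.01, adjusted p = 4.83e-11), and 85.9 ± 3.41 and 388 ± 2.32 in granulocytes (2.16, adjusted p = 8e-30). The response was larger in granulocytes by 1.19 on the log2 scale (adjusted p = 1.49e-12). SQSTM1, an autophagy receptor that binds KEAP1, rose in both, by 0.72 and 2.45. KEAP1 was at 79.4 ± 7.42 and 68.4 ± 3.69 CPM in promyelocytes (-0.19, adjusted p = 0.0671), where the call appeared without vehicle replicate 3 (adjusted p = 0.0225), without TNF-α replicate 3 (0.044) and in the fit of all 12 libraries (0.0176). In granulocytes KEAP1 rose from 52.3 ± 1.07 to 89.1 ± 2.73 CPM (0.76, adjusted p = 5.78e-15). Of the 12 listed regulators of NRF2 activity, 8 rose and 2 fell in granulocytes, where 24.4% and 24.8% of all genes did. In promyelocytes 2 rose and 1 fell, where 8.15% and 6.65% of all genes did. The 8 included the small MAF partners MAFF (1.68), MAFG (1.24) and MAFK (0.63) and the ARE repressors BACH1 (0.24) and BACH2 (1.57), and all 8 held when any 1 library was left out. Of the 2 that fell in granulocytes, BTRC held, and CUL3 lost its call without vehicle replicate 2 (adjusted p = 0.163) or TNF-α replicate 2 (0.158), in the fit of all 12 libraries (0.0656) and when trends with GC content and length were taken out (0.183). The 1 regulator that fell in promyelocytes, MAFK, lost its call without vehicle replicate 1 (adjusted p = 0.178) or 2 (0.189) and without TNF-α replicate 1 (0.173) or 2 (0.104).

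NADPH, which TXNRD1 needs, is made by some, but not all, of the 8 enzymes in the list for its supply. Of the 8, 4 rose and 2 fell in granulocytes, where 24.4% and 24.8% of all genes did. Of these, 3 and 1 held in every fit without 1 library. IDH2, the faller that did not, was near the threshold (adjusted p = 0.049). It lost its call without vehicle replicate 1 or 3 or TNF-α replicate 2 or 3 (adjusted p up to 0.301). It also lost it with DESeq2 (0.105), with DESeq2 size factors (0.0639) and without a low-count filter (0.0587). The same held with a replicate block (0.107) and in the fit of all 12 libraries (0.14). ME1, the cytosolic malic enzyme, went from 11.8 ± 0.913 to 91.7 ± 5.92 CPM (2.93, adjusted p = 9.94e-30). IDH1, the cytosolic isocitrate dehydrogenase, fell in both cell types, by 0.41 in promyelocytes (adjusted p = 6.46e-05) and by 0.39 in granulocytes (1.76e-08). In promyelocytes 1 enzyme of this list rose and 3 fell, where 8.15% and 6.65% of all genes did. IDH1 was the 1 whose call held when any 1 library was left out. ME1 lost its promyelocyte call without vehicle replicate 2 (adjusted p = 0.0827) and without TNF-α replicate 1 (0.0669). TKT, the transketolase, which does not itself make NADPH, lost its call without vehicle replicate 1 (0.13), vehicle replicate 2 (0.0873), TNF-α replicate 1 (0.0904) and TNF-α replicate 2 (0.11).

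In the rest of the thioredoxin system, 15 genes were tested in granulocytes, 4 rose and 4 fell, and 4 and 3 of these held in every fit without 1 library. This is near the 49.2% called among all genes. SRXN1, the sulfiredoxin that repairs overoxidized peroxiredoxins, rose by 2.20 from 0.421 ± 0.140 CPM (adjusted p = 1.44e-06). TXNIP, the protein that binds and inhibits thioredoxin, fell from 448 ± 16.1 to 276 ± 5.09 CPM in granulocytes (-0.71, adjusted p = 3.78e-15) and from 97.2 ± 4.04 to 80.5 ± 2.63 in promyelocytes (-0.25, adjusted p = 0.00583). SESN3, a sestrin, fell in granulocytes (-1.40, adjusted p = 3.89e-24) and in promyelocytes (-0.72, adjusted p = 6.3e-09). Of the 14 genes tested in promyelocytes 0 rose and 3 fell, where 8.15% and 6.65% of all genes did. The third that fell, MSRB1, lost its call without vehicle replicate 1 (adjusted p = 0.0701). In granulocytes MSRB1 rose, from 78.2 ± 4.61 to 108 ± 5.28 CPM (0.46, adjusted p = 3.82e-09). Its responses differed by 0.84 (adjusted p = 1.76e-06).

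In the glutathione system 8 of 17 genes tested rose and 5 fell in granulocytes, where 24.4% and 24.8% of all genes did. In promyelocytes 1 of 18 rose and 0 fell, where 14.8% of all genes were called. In every granulocyte fit without 1 library, 7 of the 8 and 2 of the 5 held. Of the fallers, GGCT lost its call without vehicle replicate 1 or 2 or TNF-α replicate 2 (adjusted p up to 0.107), GSTM4 without vehicle replicate 2 or 3 or TNF-α replicate 3 (up to 0.227), and ABCC1 without vehicle replicate 2 or 3 or TNF-α replicate 2 or 3 (up to 0.112). The promyelocyte riser was SLC7A11, the cystine importer that feeds glutathione synthesis, which rose in both cell types. It went from 23.4 ± 1.23 to 47.7 ± 4.55 CPM in promyelocytes (1.05, adjusted p = 4.73e-09) and from 312 ± 11.9 to 440 ± 16.6 in granulocytes (0.49, adjusted p = 1.82e-10). Its response was smaller in granulocytes, by -0.53 (adjusted p = 7.36e-05), opposite in sign to that of GCLM. Its partner subunit SLC3A2 (0.46) and the glutathione reductase GSR (0.25) rose in granulocytes, and GSTM2 fell by 0.39.

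Of 8 other superoxide and peroxide genes tested, 4 rose and 1 fell in granulocytes, where 24.4% and 24.8% of all genes did. In every fit without 1 library, 3 of the risers held. The faller, CCS, lost its call without vehicle replicate 1 or TNF-α replicate 1 (adjusted p up to 0.0578). In promyelocytes 0 of the 8 changed by edgeR's or DESeq2's adjusted p, and 1 had an unadjusted p under 0.05. Of all genes there, edgeR called 14.8%. The granulocyte risers included GPX4, which reduces lipid peroxides, from 112 ± 5.36 to 168 ± 14.3 CPM (0.56, adjusted p = 3.48e-11), and the peroxiredoxins PRDX1 (0.58) and PRDX6 (0.32). Among 6 heme, iron and quinone genes tested, 3 rose in granulocytes, FTH1 (1.63), FTL (0.46) and NQO2 (0.47), and 0 fell, beside 24.4% and 24.8% of all genes. FTH1, the heavy chain of the iron store ferritin, went from 219 ± 15.6 to 683 ± 32.8 CPM (adjusted p = 9.71e-25). In promyelocytes NQO2 was the 1 riser of this list, where 8.15% of all genes rose. NQO2 was called in 1 of the 6 fits that left out a library (adjusted p up to 0.145).

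**Figure D5:**
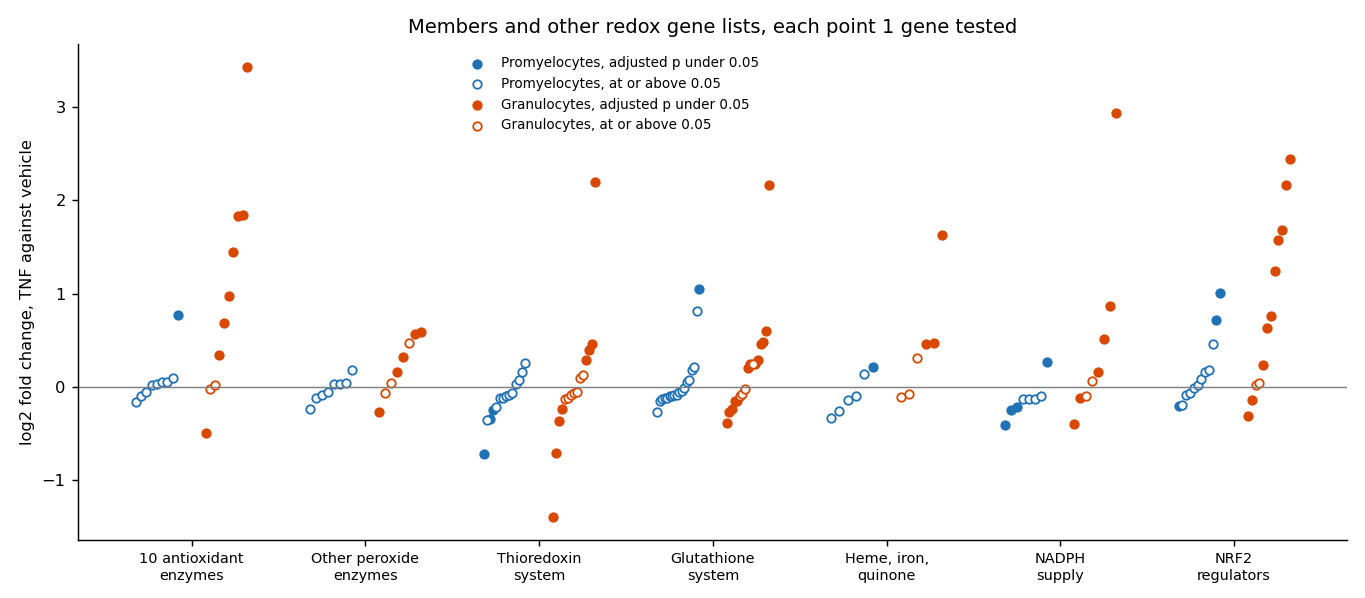
log2 fold change with TNF-α against vehicle (y axis) of each gene tested in the 10 antioxidant enzymes and 6 further redox lists (x axis), in promyelocytes (blue) and granulocytes (orange), filled where the adjusted p was under 0.05. Filled orange points outnumber filled blue ones in every list, as they do over all genes tested (49.2% against 14.8% called), and the highest point is SOD2 at 3.43.

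The transcripts whose profile over the 12 libraries was most like that of SOD2 were found by Pearson correlation of log2 CPM over 15393 genes tested in all fits. They were CDC42EP2 (r = 0.994), TRAF3 (0.994), IRF8 (0.992), IL27RA (0.992) and MGLL (0.991). The 12 points fall into 4 groups, so these values describe the order of the group levels. TRAF3, an adaptor of TNF receptor family signaling, had 73.7 and 123 CPM in promyelocytes with vehicle and TNF-α, and 39.8 and 202 in granulocytes. IRF8, an interferon regulatory factor, had 2.15 and 3.55 CPM, and 0.330 and 10.3. Like SOD2, all 5 were lowest in vehicle-treated granulocytes and highest in granulocytes given TNF-α, which follows from how they were picked.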

How the data were processed

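RNA of 12 libraries was depleted of ribosomal RNA and sequenced in paired ends, and the authors deposited raw counts of read pairs per gene, made with STAR 2.5.3a and strand-aware featureCounts 1.5.2 on hg38 with GENCODE 27 per the submitters' notes and the file header. Gene IDs were paired with symbols for 57577 rows by ID and 39 by position, and 672 had none. Counts were scaled with TMM and tested with edgeR 4.0.16 (glmQLFit and glmQLFTest, filterByExpr with a minimum count of 10) in R 4.3.3, for each cell type alone and, for the difference between responses, over all 12 libraries. Benjamini-Hochberg adjustment ran over all genes tested, with a threshold of 0.05. An exact permutation test of 3 against 3 libraries cannot go below p = 0.1 and was not used. TPM, for comparing genes, used the deposited exon lengths. CPM, for comparing groups, used TMM library sizes. Intervals of fold changes are 95% intervals before adjustment.

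The 10 members and all gene lists were chosen with earlier results of these data known. Besides the members, NFE2L2 and KEAP1, the naming rule took up to 2 called genes with the largest rise and fall of each list and cell type and the 5 genes most like SOD2. The other list genes named (ABCC1, BACH1, BACH2, FTL, GGCT, GSR, GSTM4, MAFF, MAFG, PRDX6, SLC3A2, TKT, the checks and markers) were named after their values were seen. Values of 1 gene of the NADPH list are not reported here. Alternatives were DESeq2 1.42.0, its size factors, no low-count filter, a replicate block, a threshold of 0.01, thinning to 22829189 counts, trends with GC content and length taken out, 1 fit of all libraries, each library left out, and other length scales. Pseudogenes of members (11 rows) had 0 to 12 counts. An antisense RNA sharing 575 exonic bases with NQO1 had 1 to 14 counts. Same-numbered libraries did not deviate together (correlations -0.137 to -0.015), so the numbers were not taken as pairs.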

Additional observations from a re-analysis of the deposited data

Results flagged for a closer look

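For 7 members the TNF-α response differed between the cell types in the test of the difference itself. The granulocyte response exceeded the promyelocyte response by 2.70 on the log2 scale for SOD2, 1.82 for GCLM, 1.39 for NQO1, 0.96 for TXNRD1, 0.69 for TXN and 0.35 for SOD1, and was below it by -0.29 for CAT. These calls held in each of the 12 fits that left out 1 library and in each of the 7 other settings. The 2 cell types were treated in separate experiments, so cell type and experiment cannot be told apart.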

How the results depend on the processing

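In promyelocytes 1 member was called, and 2 with DESeq2, with trends in GC content and length taken out and with all 12 libraries in 1 fit, where CAT was added. In granulocytes 8 were called under every setting but the one without trends in GC content and length (9, with GPX1), and 7 responses differed under every setting other than without promyelocyte vehicle replicate 2 (8, with HMOX1). Leaving out each library gave 1 to 1, 8 to 8 and 7 to 8 members in these 3 comparisons. With a replicate block, 1, 8 and 7 members were called, and 1833 of all genes against 2405 in promyelocytes and 7721 against 8344 in granulocytes. With all genes, the threshold of 0.01 left 1438, 6640 and 2843 calls, and leaving out a library left as few as 1598 in promyelocytes. With the longest transcript as the length, 4 members took another place in vehicle-treated promyelocytes, 4 in promyelocytes given TNF-α and 3 in granulocytes given TNF-α, and the cause was not tested.

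Signs turned only for members that did not pass the test in any of the settings named, except GPX1. In promyelocytes SOD1 turned to -0.0001 in 1 fit of all libraries, to -0.0135 without vehicle replicate 2 and to -0.0251 without TNF-α replicate 2, with 0.0847 as its highest value when a library was left out. TXN turned to -0.0456 with trends removed and to -0.0040 without TNF-α replicate 2 (highest 0.0676), and GCLM to -0.0536 with trends removed, -0.0027 without vehicle replicate 2 and -0.0318 without TNF-α replicate 1 (highest 0.1029). In granulocytes GPX1 turned to -0.1726 with trends removed, -0.0223 without vehicle replicate 2 and -0.0004 without TNF-α replicate 2 (highest 0.0565), and GCLC to 0.0132 and 0.0075 without TNF-α replicates 1 and 2 (lowest -0.0676). The difference between responses turned to -0.1406 for GPX1 with trends removed and to -0.0110 for GCLC without a low-count filter. Depth limits HMOX1, at 38 counts or fewer in every library. The members kept their direction and side of the threshold in 436 values, turned in these 15 and gained a call in 4.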
